A study of Pimephales promelas with 27 samples.

Results

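Newly hatched fathead minnow (Pimephales promelas) that had been exposed as embryos to pure naphthenic acids at 2.5 ppm were compared with hatchlings of the salt control of the same experiment. The comparison takes the 3 arrays labelled 2.5 ppm (replicates 4, 5 and 6) and the 3 arrays labelled salt (replicates 7, 8 and 9), so 6 of the 27 arrays of the series. Each array carried Cy3-labelled total RNA of newly hatched fish, on a one-colour Agilent design. The labels name the 2.5 ppm group only by its exposure, and give neither the composition of the acids nor the salt of the control, nor any strain. The pure experiment also holds 3 arrays at 1.25 ppm (replicates 1, 2 and 3), which share the salt control. Unless another fit is named, the p-values and SE of the comparison come from a fit of all 9 arrays of the pure experiment. The 1.25 ppm arrays thus enter the estimate of the spread. The other 18 arrays belong to fresh and aged oil sands exposures, each with a salt control of its own, and are used here where a comparison needs them.

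Naphthenic acids are carboxylic acids that occur in crude oil and bitumen and dissolve into the water used to extract bitumen from oil sand, where they are counted among the main toxic constituents for fish. The fathead minnow is a small freshwater fish used widely in toxicity testing, in part because its eggs can be exposed from soon after fertilisation until the larvae hatch. An array of whole hatchlings reads the mixed RNA of all their tissues, so fewer cells of a type and less RNA per cell cannot be told apart.

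The files name the probes of this array by contig or sequence number and pair none with a gene, and a lookup of those names among the 64593 genes of the reference annotation found 0. No gene or pathway can therefore be named, no tissue marker could be checked, and the probes are described by identifier, signal and behaviour over the arrays. Levels below are the log2 processed signal of a probe minus the 75th percentile of its array, so a level of 0 is the signal that 75% of all spots that are not controls lie below. Differences are log2 values of 2.5 ppm minus salt. Of 15208 probes, 12749 were marked as well above background in 3 or more of the 6 arrays and were tested, and 10602 of them were so on all 6.

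At 2.5 ppm, 215 probes rose and 71 fell against salt (limma, Benjamini-Hochberg adjusted p below 0.05 over the tested probes), which is 1.69% and 0.557% of the probes tested. At an unadjusted p below 0.05 there were 2582. The raised probes had a median fitted difference of 1.37, a 2.58-fold higher signal, and the lowered probes one of -1.06. With the 9 probes that were above background on no array of 1 group set at their bound (3 raised, 6 lowered, given below), the medians were 1.35 and -1.001. Among probes above background on all 6 arrays, 202 rises lay between 0.60 and 5.93 and 33 falls between -1.55 and -0.64. Over all tested probes the median difference was -0.12. Of the probes above background on all 6 arrays, 37 raised and 0 lowered probes differed by at least 4-fold. Which direction held more calls turned with the settings: falls outnumbered rises with array weights (498 raised, 770 lowered) and with all groups without 5 arrays of other sources and slide as a fixed block (423 raised, 580 lowered). Without salt replicate 8 there were 88 rises and 2 falls. The spread behind the reported counts was estimated over all 9 arrays of the pure experiment, those of the lower dose included. With only the 6 arrays compared in the fit, there were 121 rises and 20 falls. Nothing in the labels ties the 3 replicates of a group to separate tanks or spawns. A p-value here therefore reflects only how far the arrays in the fit spread, and part of that spread may be technical.

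Among probes above background on all 6 arrays the largest rise was that of UF_Ppr_AF_106707. Its level was 1.04, 0.08 and 0.32 on the 2.5 ppm arrays, against -5.46, -5.38 and -5.49 on the salt arrays. The salt arrays lay near the bottom of the measured range, with processed signals of 25.5 to 35.9 units, and every 2.5 ppm array was above the 75th percentile of its array. The means were 0.48 ± 0.50 at 2.5 ppm and -5.44 ± 0.06 in salt (SD, n = 3 each), a difference of 5.93 ± 0.46 (SE; limma adjusted p = 5.775e-04), or 60.8-fold. At 1.25 ppm the levels were -1.18, 0.85 and -0.51, also above salt (difference 5.16 ± 0.46, limma adjusted p = 0.00584), and these overlapped the levels at 2.5 ppm.

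UF_Ppr_AF_111904 stood next. Its level was 2.36, 2.12 and 2.44 on the 2.5 ppm arrays, against -3.77, -3.65 and -3.12 on the salt arrays. The difference was 5.82 ± 0.25 (SE, n = 3 each; limma adjusted p = 3.712e-05), or 56.6-fold, and the array-to-array SD was 0.17 at 2.5 ppm and 0.35 in salt. At 1.25 ppm its levels of 0.48, -0.11 and 0.69 lay between the other groups and overlapped neither. The step of 1.96 ± 0.25 between 2.5 and 1.25 ppm missed the threshold (limma adjusted p = 0.0507). In the order of group means both of these raised probes ran salt, 1.25 ppm, 2.5 ppm, but for the first of them the doses did not differ beyond the spread between arrays (step 0.76 ± 0.46, limma adjusted p = 0.766).

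**Figure D1:**
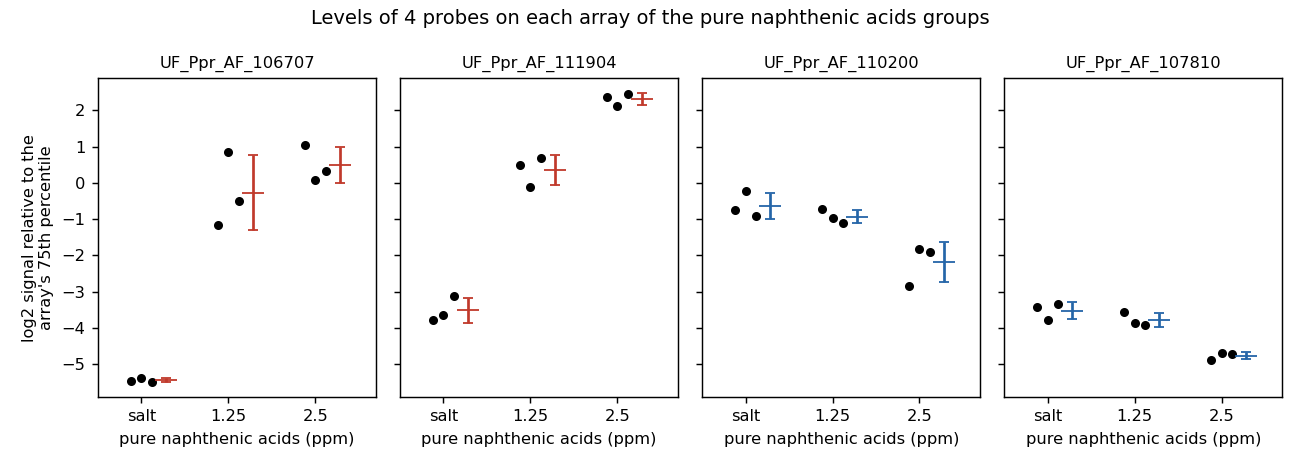
Level of 4 probes (log2 signal relative to the 75th percentile of the array) on each array of the salt, 1.25 ppm and 2.5 ppm groups. Points are arrays, horizontal lines are means and bars are SD (n = 3). The pair of raised probes lies between -5.49 and -3.12 in salt and at or above 0.08 at 2.5 ppm, while the pair of lowered probes moves by less and has 1.25 ppm arrays among the salt arrays.

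The falls were smaller. Among probes above background on all 6 arrays the largest was that of UF_Ppr_AF_110200, with levels of -2.83, -1.81 and -1.91 on the 2.5 ppm arrays, against -0.75, -0.23 and -0.92 on the salt arrays. Replicate 4 was the lowest of the exposed arrays and replicate 8 the highest of the salt arrays, and the groups did not overlap. The difference was -1.55 ± 0.29 (SE, n = 3 each; limma adjusted p = 0.0337). At 1.25 ppm the levels of -0.74, -0.96 and -1.10 overlapped those of salt. The call was lost in 10 of 22 alternative settings, with adjusted p up to 0.557, among them the fits without replicate 4, 6, 7, 8 or 9 (limma adjusted p = 0.0635, 0.0595, 0.0886, 0.140 and 0.0513).

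UF_Ppr_AF_107810 was a dim probe throughout. Its level was -4.88, -4.69 and -4.73 on the 2.5 ppm arrays, against -3.43, -3.79 and -3.35 on the salt arrays, with processed signals of 26.4 to 55.0 units at 2.5 ppm and 104 to 125 units in salt. The groups did not overlap, and the difference was -1.24 ± 0.16 (SE, n = 3 each; limma adjusted p = 0.00705). The levels at 1.25 ppm, -3.55, -3.86 and -3.91, again overlapped those of salt and not those of 2.5 ppm. With normexp background correction, which removes a background modelled over all spots of an array, the difference had the other sign (0.38, limma adjusted p = 0.715). That setting also used median signals and added an offset of 50 units, so background removal was not its only change.

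Sizes are given for the 212 raised and 65 lowered probes that were above background on at least 1 array of each group. Of the 212, 60 differed by less than 2-fold, 109 by 2-fold to 4-fold, 37 by 4-fold to 16-fold and 6 by more than 16-fold. Of the 65, 29 differed by less than 2-fold, 35 by 2-fold to 4-fold, 1 by 4-fold to 16-fold and 0 by more. On the 2.5 ppm arrays 24 of the 65 were above background on 1 array and 8 on 2, so their sizes rest in part on dimmer signals. Of the 212, 4 and 6 were above background on 1 and 2 salt arrays. Of the 33 lowered probes above background on all 6 arrays, 11 differed by at least 2-fold, and 142 of the 202 raised ones did. Every one of the 215 and of the 71 had groups that did not overlap, with smallest gaps of 0.31 and 0.35 between the nearest arrays. Among all tested probes 9.02% lay higher at 2.5 ppm with no overlap and 17.3% lay lower with no overlap, so the probes without overlap leaned to falls while the called probes leaned to rises. Dim probes passed the filter more often through the salt arrays than through the 2.5 ppm arrays, so these shares follow in part from the choice of probes. The median SD of the raised probes was 0.20 at 2.5 ppm and 0.20 in salt, and that of the lowered probes was 0.27 at 2.5 ppm and 0.19 in salt. Over all tested probes the median SD was 0.23 at 2.5 ppm and 0.22 in salt.

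**Figure D2:**
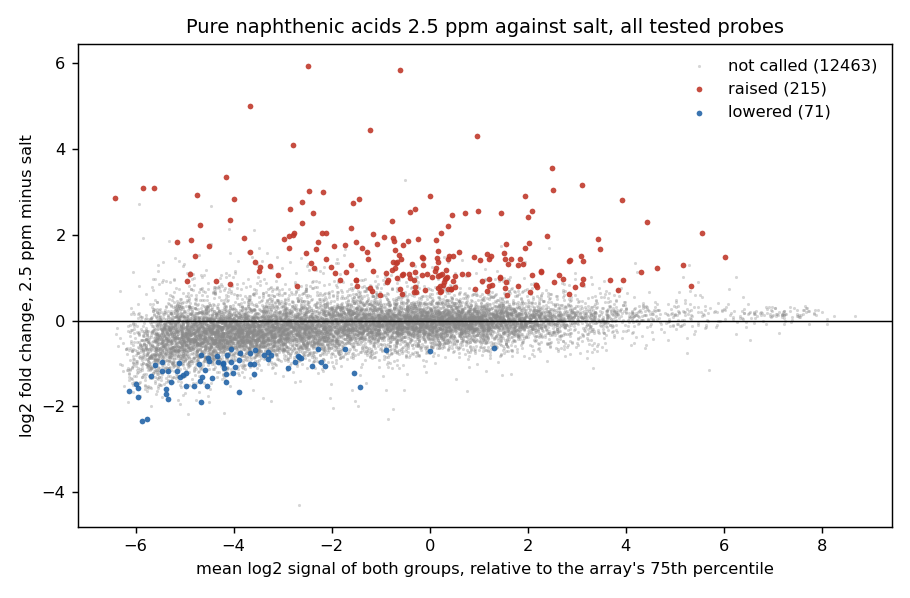
Log2 difference of 2.5 ppm minus salt (vertical) against the mean level of both groups (horizontal, log2 relative to the 75th percentile) for the 12749 tested probes. Each point is a probe at its fitted difference, with 215 raised and 71 lowered, 9 of which have only a bound. Rises reach 5.93 and lie across the whole range of signal, while most falls lie at the dim end.

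Raised and lowered probes differed in signal. When the tested probes were divided into 10 equal bins by mean signal, the dimmest 3 bins (3824 probes) held 20 raised and 52 lowered probes, and the brightest 4 bins (5100 probes) held 143 raised and 2 lowered. The median difference over all probes of a bin moved the same way, with -0.49 in the dimmest and 0.09 in the brightest. Dim probes passed the filter more often through salt. Of the uncalled probes, 407 were above background on 2 salt arrays and 1 exposed array, against 30 on 1 salt array and 2 exposed arrays. The medians and the falls of the dim bins therefore follow in part from the choice of probes. The median SE was 0.37 in the dimmest bin and 0.16 in the brightest. Among raised probes, the 25 with a salt level at or below -4 had a median difference of 1.92 and the 37 with one between -4 and -2 had 1.83. The 80 between -2 and 0, the 49 between 0 and 2 and the 24 above 2 had medians of 1.17, 1.12 and 1.17. These medians are over called probes, and a dim probe needed a larger difference to be called: the smallest called rise was 0.86 at or below -4 and 0.60 between -2 and 0. The salt level is also part of the difference, so a low salt level and a large rise are linked in part in advance.

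**Figure D3:**
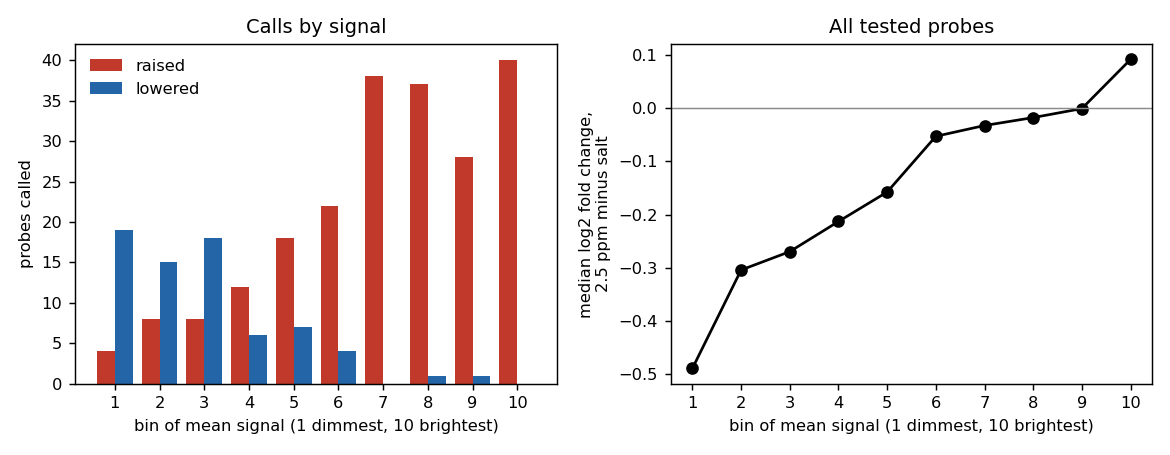
Left, number of raised and lowered probes in each of 10 equal bins of mean signal (1 dimmest, 10 brightest). Right, median log2 difference of 2.5 ppm minus salt over all tested probes of each bin, which runs between -0.49 and 0.09. Most falls sit at the dim end, while rises occur in every bin, with 4 in the dimmest and 40 in the brightest.

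The exposed arrays also had fewer probes above background on average. The counts were 10930, 11456 and 13014 of 15208 on the 2.5 ppm arrays (replicates 4, 5 and 6), against 13107, 12369 and 13054 on the salt arrays (replicates 7, 8 and 9), so replicates 4 and 5 lay below every salt array and replicate 6 among them. The 75th percentile of the signal was 779, 881 and 1455 units at 2.5 ppm, against 1123, 1498 and 1273 units in salt, with the same pair lowest. All 215 raised probes were above background on every 2.5 ppm array, and 202 were so on every salt array too. All 71 lowered probes were above background on every salt array, but 33 were so on every 2.5 ppm array. Of all 12749 tested probes, 12277 to 12695 were above background on each salt array and 10899 to 12671 on each 2.5 ppm array. On all 6 arrays 10602 were so. A probe dim in 1 group could pass the filter through the other group alone, so these counts follow in part from the choice of probes. With normexp correction the median difference of all tested probes was 0.35 in place of -0.12. The median of the 71 was then 0.49, with 11 of them below 0 and 0 of them called. The median of the 215 was then 1.22, with all 215 above 0 and 60 called. The offset of 50 units and the median signals of that setting also enter these values. The part of background signal in the falls was not tested further.

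For 3 raised probes no salt array was well above background, and for 6 lowered probes no 2.5 ppm array was. For these the fitted difference has no lower side that was measured, so a bound is given, the mean of the bright group against the lowest signal that was well above background on each dim array, or the probe's own signal where that was higher. The 3 raised probes were at least 1.92-fold to at least 3.57-fold higher at 2.5 ppm. The 6 lowered probes were at least 1.24-fold to at least 1.86-fold lower at 2.5 ppm.

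The exposed arrays did not carry the difference equally. Set against the mean of salt, the raised probes had median differences of 1.49, 1.31 and 1.22 on replicates 4, 5 and 6, and the lowered probes had -1.29, -1.08 and -0.95. Over all tested probes the medians were -0.08, -0.11 and -0.11, but replicate 4 had 1821 probes at least 2-fold from the salt mean, against 753 on replicate 5 and 575 on replicate 6. Replicate 4 held the highest level of 136 of the 215 raised probes, against 62 for replicate 5 and 17 for replicate 6, and the lowest level of 45 of the 71 lowered probes, against 15 and 11. The counts of highest and lowest levels were not made over all tested probes, so they are a description only. Replicate 4 was also the array with the fewest probes above background. Without it, 109 probes rose and 8 fell, and without salt replicate 8, 88 rose and 2 fell. Leaving out any other array gave between 129 and 154 rises and between 11 and 59 falls.

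The arrays lay on slides numbered here 1 to 4, with the 2.5 ppm arrays on slides 3, 4 and 1 and the salt arrays on slides 2, 3 and 3. Slide 3 was thus the only slide with both groups, with 1 exposed and 2 salt arrays. Within it the median difference was 1.51 for the raised probes, -1.21 for the lowered probes and -0.03 over all tested probes. The called probes were chosen on these same arrays with no overlap, so their signs within the slide were set in advance. The exposed array of slide 3 was replicate 4, which lay farthest from salt, so these medians are a description only. With slide as a fixed block in the 9 arrays of the pure experiment, 19 probes rose and 1 fell. All 19 were among the 215, and the 1 was not among the 71. The medians of the 215 and the 71 were then 1.37 and -1.11. The slide terms also left fewer residual degrees of freedom. With slide as a random block, 217 rose and 69 fell, with an estimated correlation within slides of 0.01.

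The lower dose was compared with the same salt arrays, so the values of the doses are given side by side and not set against each other as independent. At 1.25 ppm, 15 probes were higher than salt, 0.118% of those tested, and 0 were lower (limma, adjusted p below 0.05); 1182 had an unadjusted p below 0.05. All 15 were among the 215, with differences between 1.03 and 5.16. The median level of the raised probes was -0.85, -0.79 and -0.61 on the salt arrays, 0.14, -0.09 and -0.01 on the 1.25 ppm arrays and 0.70, 0.50 and 0.47 on the 2.5 ppm arrays. For the lowered probes it was -3.69, -3.72 and -3.77 on the salt arrays, -4.20, -4.30 and -4.16 on the 1.25 ppm arrays and -4.96, -4.69 and -4.66 on the 2.5 ppm arrays. The 1.25 ppm medians lay between the others in both lists. The lists were chosen for the difference between 2.5 ppm and salt on these arrays, so a group in between is a description only.

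The step between the doses was tested directly. Between 2.5 and 1.25 ppm, 6 probes rose, 0.0471% of those tested, and 0 fell (limma, adjusted p below 0.05), while 948 had an unadjusted p below 0.05. All 6 were among the 215, and their steps were between 1.13 and 2.60. The step shares the 2.5 ppm arrays and the estimate of the spread with the comparison that chose the 215, which favours that overlap. The greatest step, 2.60 ± 0.31 (SE, n = 3 each; limma adjusted p = 0.0458), was that of a probe with mean levels of 0.73 in salt, 1.68 at 1.25 ppm and 4.28 at 2.5 ppm. Another of the 6 had means of -1.17 in salt, 0.98 at 1.25 ppm and 3.11 at 2.5 ppm. The brightest of the 6 had 2.52 in salt, 4.19 at 1.25 ppm and 5.33 at 2.5 ppm. Leaving out any 1 of the arrays of either dose left 0 or 1 call.

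The salt controls of the other sources give a further reference. Fresh salt was used as another control, since none of its 3 arrays stood apart from the rest, and the comparison shares the 2.5 ppm arrays with the first. Against fresh salt 151 probes rose and 68 fell at 2.5 ppm, 1.18% and 0.533% of those tested (limma, adjusted p below 0.05). The median difference from fresh salt was 0.93 for the 215 probes, with 210 above 0, and -0.75 for the 71, with 67 below 0. It was -0.07 over all tested probes. The calls overlapped in part: 115 probes were raised against both controls, of 215 and of 151, and 20 were lowered against both, of 71 and of 68. On the fresh salt arrays the median level of the 215 was -0.29, -0.28 and -0.26, higher than on any pure salt array, and that of the 71 was -4.05, -4.36 and -4.17, lower than on any pure salt array. Because the probes were chosen on the pure salt arrays, that shift is a description only. In a comparison added after the data were seen, pure salt was lower than fresh salt at 2 probes (0.0157% of those tested) and higher at 0. There were 1104 probes with an unadjusted p below 0.05. Both of the 2 were among the 215 raised probes, an overlap that the shared pure salt arrays favour.

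Both large rises stood against fresh salt as well: the difference of UF_Ppr_AF_106707 was 5.44 ± 0.48 (SE, n = 3 each; limma adjusted p = 3.133e-04) and that of UF_Ppr_AF_111904 was 5.49 ± 0.23 (limma adjusted p = 1.701e-06). Neither of the identified lowered probes passed against fresh salt. UF_Ppr_AF_110200 had -0.97 ± 0.27 (limma adjusted p = 0.108) and UF_Ppr_AF_107810 had -0.72 ± 0.22 (limma adjusted p = 0.132).

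**Figure D4:**
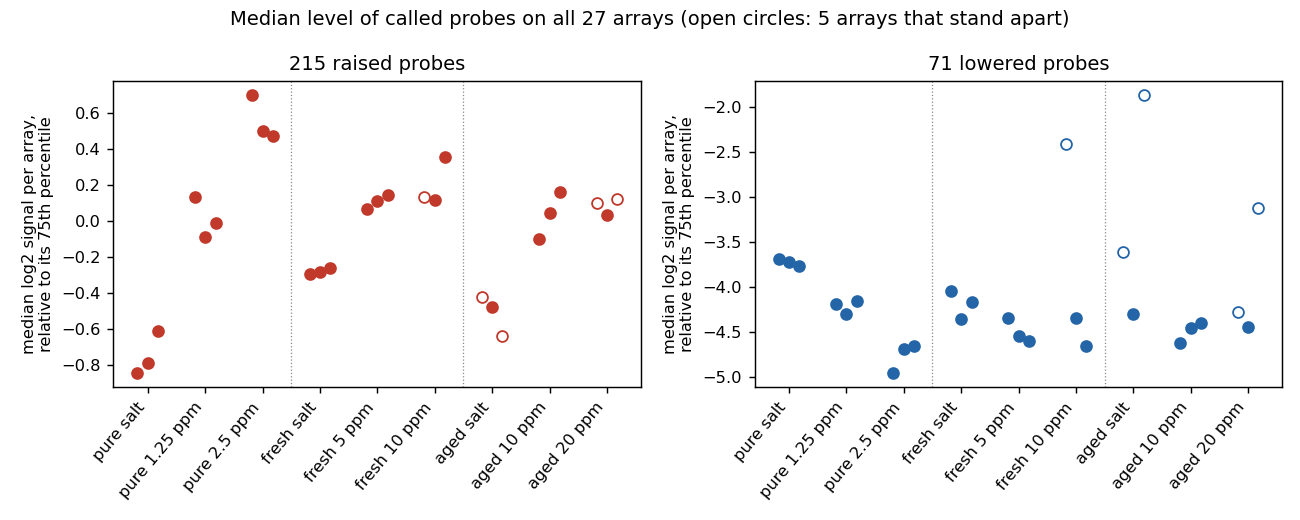
Median level of the 215 raised probes (left) and the 71 lowered probes (right) on each of the 27 arrays, in log2 relative to the 75th percentile, by exposure and source. Open circles are 5 arrays that stand apart from their value in the authors' table. In the pure groups the raised probes run between -0.85 in salt and 0.70 at 2.5 ppm, and the lowered probes between -3.69 in salt and -4.96 at 2.5 ppm.

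The probes were followed into the top doses of the other sources, which have other control arrays. The ppm of the process waters and of the pure acids may not count the same thing, so the doses cannot be matched. Before these values, 5 arrays need naming: replicate 1 of fresh 10 ppm, replicates 7 and 9 of aged salt and replicates 4 and 6 of aged 20 ppm had scanner signals that ranked the probes differently from the authors' values (Spearman correlation under 0.99). At fresh 10 ppm against fresh salt the 215 probes had a median difference of 0.65, against 0.16 over all tested probes, and 0.64 against 0.03 without the 5 arrays. At aged 20 ppm against aged salt they had 0.59, against -0.07 over all, and 0.50 against 0.12 without the 5 arrays, where 1 array is left in each aged group. The 71 probes had 0.05 at fresh 10 ppm, against 0.16 over all tested probes, and -0.39 against 0.03 without the 5 arrays. At aged 20 ppm they had -0.52 against -0.07, and -0.11 against 0.12 without the 5 arrays. The sign of the median of the lowered probes at fresh 10 ppm thus turned on 1 array. With and without that array it lay below the median of all tested probes.

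UF_Ppr_AF_106707 had mean levels of 1.55 ± 0.51 at fresh 10 ppm and -4.96 ± 0.71 in fresh salt (SD, n = 3 each). In the aged groups it had 0.31 ± 0.22 at 20 ppm and -3.35 ± 2.13 in salt, and 2 of the 3 arrays in each of these groups stand apart. UF_Ppr_AF_111904 had 0.25 ± 0.71 at fresh 10 ppm and -3.17 ± 0.21 in fresh salt. On the same aged arrays it had 1.01 ± 0.46 at 20 ppm and -2.43 ± 0.68 in salt. The level of UF_Ppr_AF_111904 at pure 2.5 ppm, 2.31 ± 0.17, was the highest of the 9 groups, which its choice for a large rise there favours. The difference of its effect from that of fresh 10 ppm, 2.40 ± 0.66 (SE), did not pass (limma adjusted p = 0.402). Nor did that from aged 20 ppm, 2.38 ± 0.66 (SE; limma adjusted p = 0.578).

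The effect of pure 2.5 ppm was set against those of fresh 10 ppm and aged 20 ppm over all probes, in a limma fit of 27 arrays. Probes with an unadjusted p below 0.05 numbered 833 for fresh 10 ppm and 478 for aged 20 ppm. Both tests contain the pure 2.5 ppm and salt arrays that chose the 215. For those probes this favours a higher change in the pure comparison, and so calls among the 215. The effect of pure 2.5 ppm differed from that of fresh 10 ppm at 0 probes, and at 2 without the 5 arrays (0.0157%). It differed from that of aged 20 ppm at 2 probes (0.0157%), both higher in the pure comparison and both among the 215, and at 1 other probe (0.00785%) without the 5 arrays.

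Some contigs or sequences carry another probe, marked in the probe names, so a call can be set beside another probe on the same source. Of 198 sources with both probes tested, 8 had at least 1 called probe. There were 5 calls among the 198 first probes and 4 among their 198 marked partners. Over all tested probes 1.69% were raised and 0.557% lowered. In 1 of the 8 both probes rose, by 2.30 and 1.85, and in the other 7 the partner did not pass. Both probes had the same sign in 5 of the 8. Over the 198 pairs, which share the arrays but differ in signal, the differences had a Pearson correlation of 0.24 and a Spearman correlation of 0.12. The partner of UF_Ppr_AF_110200 differed by -1.40 and did not pass (limma adjusted p = 0.189), with a salt level of -4.64 and a signal above background on 4 of the 6 arrays. Some contigs share a number. Of 1177 contig numbers with more than 1 tested probe, on the same contig or on different ones, 5 had more than 1 called, each in 1 direction. Of the 5, 1 is the pair above, so 4 involve different contigs. Whether 5 is more or fewer than the share of calls over all probes would give was not tested. Probes named by contig were called raised in 1.81% and lowered in 0.503% of cases, and those named by sequence number in 1.09% and 0.758%.

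The number of calls moved with the settings. In 21 of the 22 alternatives all tested members of the 215 stayed above 0, the exception being fresh salt as the control, with 210 above 0. In many of these the sign was fixed in advance. Fits that changed only the other groups included, the filter, the minimum fold or the estimate of the spread kept the same group means. Array weights or leaving out an array could not turn a sign, because the groups of the 215 did not overlap. A sign could turn only where the values, the slide term or the control changed. The count of rises ran between 19 with slide as a fixed block and 498 with array weights, and the count of falls between 0 with normexp correction and 770 with array weights. Of the called probes 75.2% were raised as reported. With quantile normalization the share was 91.7% (243 raised, 22 lowered), with the authors' own values 92.9% (247 raised, 19 lowered) and with normexp 100% (60 raised, 0 lowered). It was 58.1% in the fit of all groups without the 5 arrays, 42.2% in that fit with slide as a fixed block and 39.3% with array weights.

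**Figure D5:**
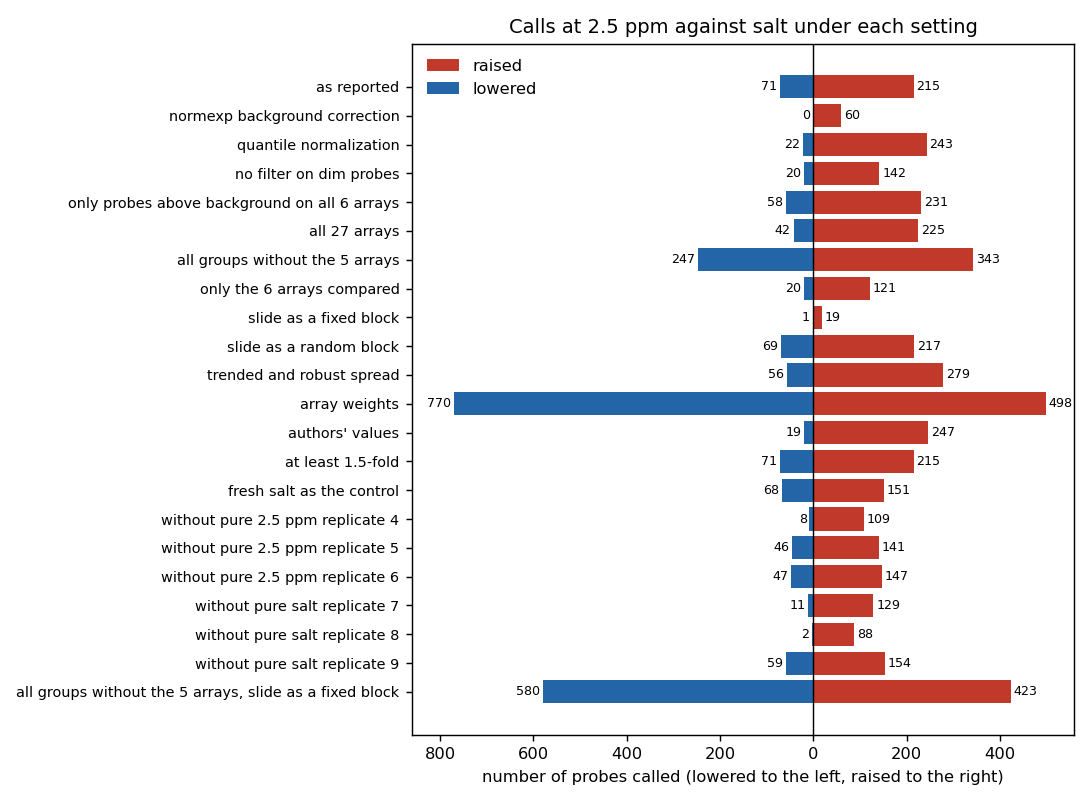
Number of probes raised (right) and lowered (left) at 2.5 ppm against salt as reported and under 21 of the 22 alternative settings, the fit without masking of spots (215 raised, 68 lowered) being left out; bars start at 0. Rises outnumber falls in most settings, while falls outnumber them with array weights (770 against 498) and with all groups without the 5 arrays and slide as a fixed block (580 against 423).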

How the data were processed

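Total RNA was measured on one-colour Agilent arrays, per the labels. The processed signal, median signal and local background were intensities on a linear scale from Feature Extraction 10.7.1.1, deposited as scanned, and flags for spots above background or not uniform came as scores of 0 or 1, per the file headers. The series' value table held the authors' log2 values, with a floor at 3.5 and column medians between 7.36 and 7.43 and no centring by probe. Higher scanner signals had higher values there. The authors' software is not given in the sources used here.

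Here log2 processed signal minus the array's 75th percentile was fitted with group means over the 9 arrays of the pure experiment (6 residual degrees of freedom) in limma 3.58.1 (R 4.3.3), after masking 21 spots that were not uniform. The fit was tested on simulated data with independent noise and no slide or background effect, so that test does not bear on those settings. The number of arrays limits the precision. The 4 identified probes are those with the largest change, 2 in each direction, among called probes above background on all 6 arrays; gene lists could not be applied. Members and lists were chosen with earlier results of these data known. Alternatives covered background, scaling, filters, arrays in the fit, slide and each array of the groups compared left out in turn. The normexp setting (offset 50) used median signals.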

Additional observations from a re-analysis of the deposited data

Results flagged for a closer look

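The change at pure 2.5 ppm against its salt differed from that at aged 20 ppm against its salt at 2 probes (limma, contrast of contrasts over 27 arrays). Both were among the 215 raised probes and higher in the pure comparison, which the shared pure arrays favour. The first, which had the sixth greatest rise, differed by 4.40 ± 0.69 (SE; limma adjusted p = 0.0439): its change was 4.09 in the pure and -0.31 in the aged comparison. The other differed by 2.07 ± 0.34 (limma adjusted p = 0.0455), with changes of 1.91 and -0.16. In the aged groups 4 of the 6 arrays stand apart. Without the 5 such arrays of the series neither passed, and 1 other probe did, with a difference of 3.13 ± 0.40 (limma adjusted p = 0.00877) that rests on 1 array in each aged group, assumed to vary like the other groups.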

How the results depend on the processing

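Against the 215 rises and 71 falls reported at 2.5 ppm, the counts were 60 and 0 with normexp, 142 and 20 with no filter on dim probes, 121 and 20 with only the 6 arrays compared, 343 and 247 with all groups without the 5 arrays, 19 and 1 with slide as a fixed block and 498 and 770 with array weights. Falls numbered 22 with quantile normalization, 42 with all 27 arrays and 19 with the authors' values. Of these, 19, 10 and 17 were among the 71. With slide as a fixed block in the pure experiment, 0 of the 71 were called. Leaving out 1 of the 6 arrays compared gave 88 to 154 rises and 2 to 59 falls. Of those falls, 2 to 21 were among the 71. Chosen after seeing the data, all groups without the 5 arrays with slide as a fixed block gave 423 rises and 580 falls, and no masking of spots gave 215 and 68. The other settings kept both counts within 1.5 times, but not always the same probes. Of the 71 falls, 36 were called with a trended and robust estimate of the spread and 20 with fresh salt as the control. Of the 215 rises, those settings kept 210 and 115. Slide as a random block kept 69 of the 71 falls and the 1.5-fold minimum kept all 71. Requiring signal above background on all 6 arrays left 33 of them, all still called. The step between doses had 6 rises as reported, 0 with normexp, 3 with quantile normalization, 2 with all 27 arrays, 21 rises and 3 falls without the 5 arrays, 0 with slide as a fixed block, and 0 to 1 with 1 array left out. The difference from fresh 10 ppm was called at 2 probes without the 5 arrays, and that from aged 20 ppm at 0 with normexp and 1 without the 5 arrays. UF_Ppr_AF_106707 and UF_Ppr_AF_111904 kept their call in all 22 alternatives (4.13 to 6.12 and 4.80 to 6.02). UF_Ppr_AF_110200 kept it in 12 and UF_Ppr_AF_107810 in 18, with 0.38 under normexp. The cause of these moves was not tested. No paired analysis was possible because the pure groups carry different replicate numbers. Dim signal limits the falls: 38 of 71 were not above background on every exposed array.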
